A study of Homo sapiens with 8 samples.

Results

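The transcriptional co-activators YAP1 and WWTR1, their DNA-binding partner TEAD1 and 7 widely used target genes (CCN1, CCN2, ANKRD1, AMOTL2, AJUBA, AXL and F3) were followed in 8 RNA-seq libraries of colorectal adenocarcinoma cells. These 10 genes were taken by symbol, as a fixed list, from the 62649 Ensembl genes in each count file. The list was chosen with earlier results of these data known. All 10 passed the filter on low counts. The libraries came from 2 established lines, SW480 and SW620, each with 2 control and 2 caffeine libraries. Per the labels both lines carry an mCherry-tagged immunoproteasome subunit (B8-mCherry), in the controls as in the treated cells, and were kept in DMEM with fetal calf serum. For SW620 the protocol lists caffeine doses from 30 to 500 µM over 72 h, and 125 µM kept up over 28 days. They give no dose or time for the sequenced libraries and no dose at all for SW480, and they do not say whether either tagged line is a single clone. Libraries of a group are called biological replicates in the labels. In the main fit each p-value weighs a difference against the spread between such libraries, estimated jointly over the 4 groups.

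YAP1 and TAZ, the protein that WWTR1 encodes, do not bind DNA themselves and act through the TEAD family of transcription factors. In the Hippo pathway the MST kinases activate the LATS kinases, which phosphorylate both co-activators and so keep them in the cytoplasm. Much of the pathway therefore runs through protein location and stability, which an RNA level does not report, and mRNA of the target genes is commonly read in its place. In the intestine YAP and TAZ are known for their part in regeneration after injury and in colorectal tumour growth.

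The stretches upstream of 3 target genes are shown because the letters that TEAD and AP-1 factors are known to bind can be seen in them. Each holds the 250 bases before the annotated start in RefSeq (GRCh38.p14), written 5′ to 3′ on the transcribed strand. Capitals mark the TEAD core GGAATG and the AP-1 letters TGANTCA. The stretch of CCN2 is chr6:131951373-131951622, that of ANKRD1 chr10:90921088-90921337 and that of F3 chr1:94541760-94542009, all on the minus strand. For ANKRD1 and F3 the outermost GENCODE model of the gene begins inside the stretch shown.
CCN2: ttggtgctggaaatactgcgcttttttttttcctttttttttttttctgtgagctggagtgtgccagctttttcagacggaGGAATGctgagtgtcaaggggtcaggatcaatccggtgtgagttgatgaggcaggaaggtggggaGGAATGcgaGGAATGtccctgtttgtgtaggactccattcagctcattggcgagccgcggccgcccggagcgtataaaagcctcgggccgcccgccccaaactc
ANKRD1: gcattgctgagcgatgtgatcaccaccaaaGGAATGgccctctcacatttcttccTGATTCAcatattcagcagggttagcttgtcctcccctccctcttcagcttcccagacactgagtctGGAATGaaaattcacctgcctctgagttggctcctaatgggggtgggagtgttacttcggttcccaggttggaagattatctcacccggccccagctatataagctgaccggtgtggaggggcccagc
F3: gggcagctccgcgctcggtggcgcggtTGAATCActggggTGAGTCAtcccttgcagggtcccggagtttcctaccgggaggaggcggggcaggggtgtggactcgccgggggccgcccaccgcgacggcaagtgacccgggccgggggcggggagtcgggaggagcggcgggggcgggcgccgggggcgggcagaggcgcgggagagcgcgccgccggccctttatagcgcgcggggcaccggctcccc

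CCN2 held 3 TEAD cores, which began at -169, -104 and -95 from the start. ANKRD1 held TEAD cores at -220 and -128 with AP-1 letters at -195 between them. F3 held AP-1 letters at -223 and -210 and no TEAD core in this window. RefSeq start windows of 300 bases (250 before and 50 after the start) were matched for 8 of the 10 genes, 12 windows in all. CCN1 and TEAD1 had none in the table used. The TEAD core, searched on both strands, was present in 6 of the 12 windows, compared with 14.03% of all 35116 windows. These 6 windows belonged to YAP1, CCN2, ANKRD1, AMOTL2, AJUBA and AXL. AP-1 letters were in 2 of the 12, compared with 7.709% of all windows. The short CREB site TGACGT and the SRF CArG box were in 0 of the 12, compared with 7.982% and 1.293% of all windows. A match is a description of these letters and was not tested as a binding site.

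**Figure D1:**
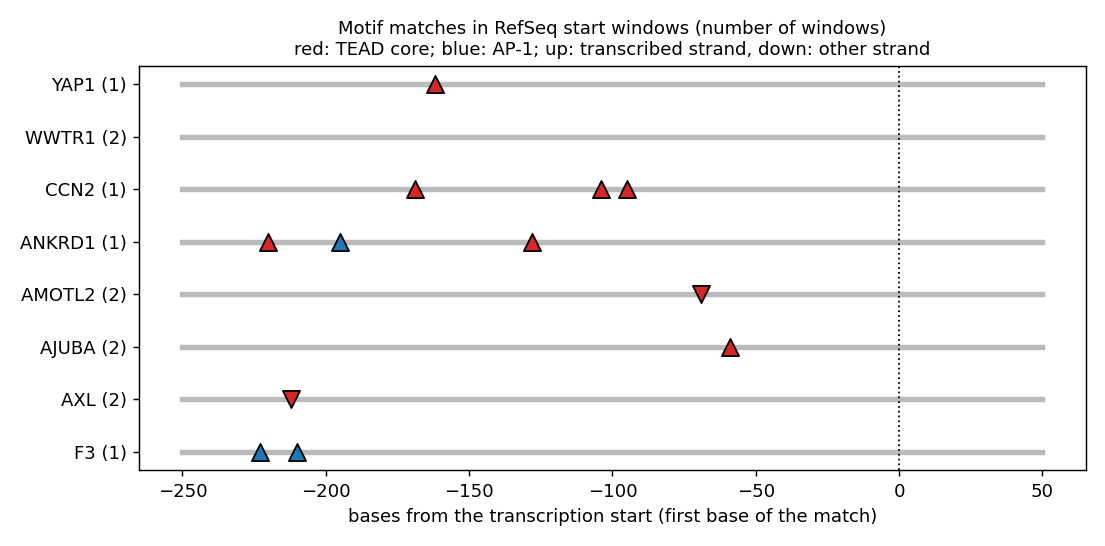
Position of TEAD core matches (red) and AP-1 matches (blue) in bases from the transcription start, in the RefSeq start windows of 8 genes, with the number of windows in brackets. Upward triangles lie on the transcribed strand and downward triangles on the other. CCN2 carries 3 TEAD cores, ANKRD1 2 with an AP-1 match between them, F3 2 AP-1 matches, and WWTR1 none of either.

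Assigned reads per library ran from 15760259 to 23269315, so that 3 counts, the most that a count of 0 allows at 95%, correspond to 0.129 to 0.190 CPM. Levels are CPM, counts scaled to a common library size, with totals adjusted by TMM. SW480 caffeine replicate 2 stood apart with a mitochondrial read share of 1.627%, where the other 7 libraries had 4.376% to 6.156%. The epithelial markers EPCAM, KRT8, KRT18, CDX2, VIL1 and CLDN4 were present in both lines (EPCAM at 157 to 184 CPM in SW480 and 573 to 705 in SW620). KRT20 and CEACAM5 were at 0 counts in both SW480 controls. In the SW620 controls KRT20 had 12 and 12 counts and CEACAM5 13 and 14. CDH1, the gene of E-cadherin, was at 0.908 and 0.7 CPM in the SW480 controls and 192 and 199 in the SW620 controls. In bulk RNA a lower level can come from fewer cells that express a gene or from less RNA per cell, and these cannot be told apart.

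Before any caffeine, most of the 10 genes were lower in SW620, the line from a lymph node metastasis, than in SW480, the line from the primary tumour of the same patient. Of the 10, 7 were lower (YAP1, WWTR1, CCN1, ANKRD1, AMOTL2, AXL and F3), 2 were higher (CCN2 and AJUBA) and TEAD1 did not pass the test. Of all 17671 tested genes, 65.6% passed in this comparison at an adjusted p under 0.05, 33.0% higher and 32.6% lower, so a gene that differs between the lines is common. The median log2 fold change over the 10 was -1.22, against 0.032 over all tested genes. The control libraries of the lines were separate for all 10 genes, and for 83.4% of tested genes.

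Among the co-activators, YAP1 (ENSG00000137693, chr11:102110461-102233423, plus strand) measured 303 and 254 CPM in the SW480 controls and 220 and 212 in the SW620 controls. Its difference was small, a log2 fold change of -0.36 ± 0.14 (SE, edgeR adjusted p = 0.0294), and it did not pass without SW480 control replicate 1, SW620 control replicate 1 or SW620 control replicate 2 (edgeR adjusted p of 0.0929 to 0.183). WWTR1 (ENSG00000018408, chr3:149517235-149736714, minus strand) measured 47.4 and 39.3 CPM in SW480 and 13 and 14.8 in SW620. That gene was 3.12-fold lower in SW620, a log2 fold change of -1.64 ± 0.14 (edgeR adjusted p = 3.20e-08). TEAD1 (ENSG00000187079, chr11:12674591-12944483, plus strand) measured 189 and 132 CPM in SW480 and 129 and 132 in SW620. The SW480 libraries of TEAD1 lay far apart, and the log2 fold change of -0.30 ± 0.16 did not pass (edgeR adjusted p = 0.121), though it did without SW480 control replicate 2 (0.00393) and with no filter on low counts (0.0472).

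Per kilobase of exon, the scale on which genes can be set side by side, YAP1 stood far above WWTR1 in both lines. The control level of YAP1 was 44.2 ± 5.55 CPM per kb (SD, n = 2) in SW480 and 34.4 ± 0.897 in SW620. That of WWTR1 was 5.16 ± 0.681 and 1.65 ± 0.154. All 4 TEAD genes were expressed. In the SW480 controls TEAD4 had the highest mean of them at 28.6 ± 2.97 CPM per kb, and TEAD2 (16.3 ± 0.769) and TEAD1 (15.6 ± 3.93) lay within their spread of each other above TEAD3 (8.70 ± 0.511). In the SW620 controls the means ran from TEAD4 (18.4 ± 0.847) through TEAD1 (12.7 ± 0.169) and TEAD3 (4.19 ± 0.531) to TEAD2 (2.81 ± 0.151), and none of these neighbours overlapped. TEAD2 was thus the TEAD gene with the largest difference between the lines, 5.8-fold lower in SW620 (log2 fold change -2.54 ± 0.14, edgeR adjusted p = 9.66e-11), followed by TEAD3 (-1.05 ± 0.15, edgeR adjusted p = 8.10e-06) and TEAD4 (-0.64 ± 0.13, edgeR adjusted p = 0.000411). VGLL4, a TEAD-binding repressor that competes with YAP, was higher in SW620 (log2 fold change 0.79 ± 0.17, edgeR adjusted p = 0.000482).

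ANKRD1 (ENSG00000148677, chr10:90912096-90921276, minus strand), an ankyrin-repeat protein of the nucleus and of the muscle sarcomere, showed the widest gap of the target genes. It measured 152 and 135 CPM in the SW480 controls and 0.304 and 0.251 CPM in the SW620 controls. Behind these levels lay 4820 counts in SW480 and 11 in SW620, which gives a ratio of 0.00193 with a 95% counting interval of 0.000965 to 0.00346, that is 517-fold lower. The SW620 libraries lay just above the 3-count floor. AXL (ENSG00000167601, chr19:41219203-41261766, plus strand), the receptor tyrosine kinase that binds GAS6, measured 21.7 and 25 CPM in SW480 and 2.83 and 3.06 in SW620, 7.91-fold lower (log2 fold change -2.98 ± 0.18, edgeR adjusted p = 2.21e-10).

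AMOTL2 (ENSG00000114019, chr3:134355874-134375479, minus strand) encodes an angiomotin-family protein that binds YAP and holds it out of the nucleus. It measured 83.6 and 66.6 CPM in the SW480 controls and 17 and 18.2 in the SW620 controls, a log2 fold change of -2.09 ± 0.16 (edgeR adjusted p = 3.52e-09). CCN1 (ENSG00000142871, chr1:85580761-85583962, plus strand), a secreted matrix-associated protein formerly named CYR61, measured 56.8 and 56.5 CPM in SW480 and 19.2 and 20.3 in SW620 (log2 fold change -1.52 ± 0.13, edgeR adjusted p = 2.08e-08). F3 (ENSG00000117525, chr1:94529225-94541800, minus strand), the tissue factor that starts blood coagulation, measured 12 and 10.9 CPM in SW480 and 5.77 and 6.36 in SW620 (log2 fold change -0.91 ± 0.17, edgeR adjusted p = 0.000172). In each of these genes both SW620 libraries lay below both SW480 libraries.

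Only CCN2 and AJUBA among the 10 were higher in SW620. CCN2 (ENSG00000118523, chr6:131948176-131951373, minus strand), formerly CTGF and a close relative of CCN1, was low in both lines, at 2.66 and 2.51 CPM in the SW480 controls and 3.95 and 4.66 in the SW620 controls. Its log2 fold change of 0.73 ± 0.26 passed (edgeR adjusted p = 0.0209), but not without SW480 control replicate 2 (0.0867), without SW620 control replicate 2 (0.139) or in DESeq2 (0.146). AJUBA (ENSG00000129474, chr14:22971174-22982642, minus strand), a LIM-domain protein that binds LATS kinases, measured 55.1 and 47.4 CPM in SW480 and 70.6 and 75.8 in SW620 (log2 fold change 0.52 ± 0.14, edgeR adjusted p = 0.00354). The 2 CCN genes thus stood in opposite order in the lines.

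**Figure D2:**
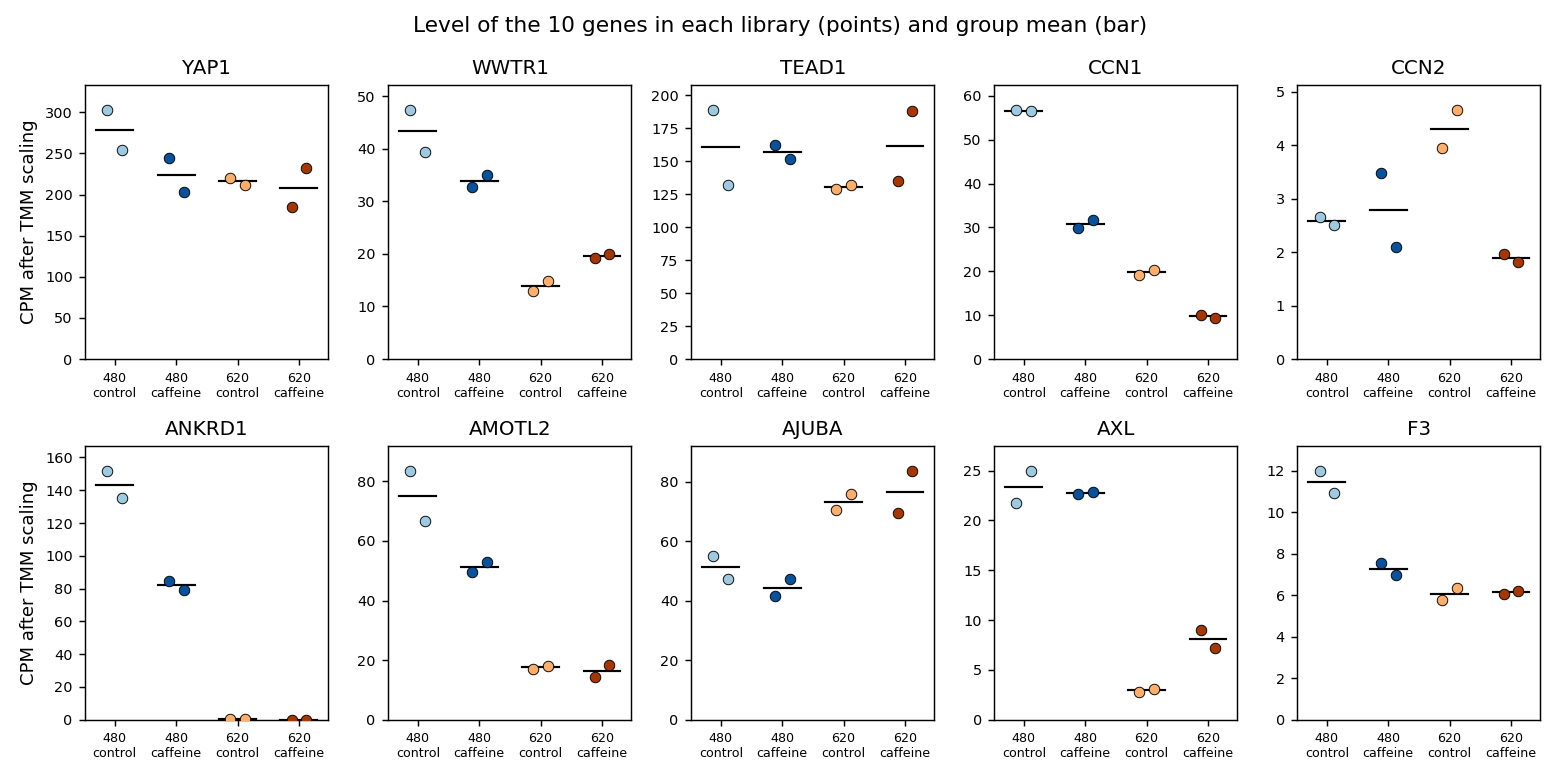
Level of each of the 10 genes in CPM after TMM scaling (linear axes from 0), with 1 point per library and a bar at the mean of each group of 2. CCN1 steps down from 56.8 and 56.5 CPM in the SW480 controls to 10.1 and 9.31 in SW620 with caffeine, and AXL steps up from 2.83 and 3.06 to 9.05 and 7.25 CPM in SW620.

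With caffeine, 4 of the 10 genes fell in SW480, and all 4 were target genes: CCN1, ANKRD1, F3 and AMOTL2. None rose, and the co-activators and TEAD1 did not pass the test. Of all tested genes 3.60% passed here, 1.93% lower and 1.67% higher. The median log2 fold change of the 10 was -0.33, against 0 over all tested genes, and 9 of the 10 values were negative. Over all tested genes 49.71% of values were positive. Libraries of the 2 groups did not overlap for 7 of the 10, against 43.0% of tested genes. Without SW480 caffeine replicate 2, the library with few mitochondrial reads, 1 of the 10 passed (CCN1) and 50 genes passed over the whole table in place of 636. With the mitochondrial genes left out of the totals instead, the count was 4 of 10. That setting keeps SW480 caffeine replicate 2 in the fit, so it does not show the part of this library in the calls.

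CCN1 measured 56.8 and 56.5 CPM in the SW480 controls and 29.8 and 31.6 with caffeine. It fell to 0.543 of the control level, a log2 fold change of -0.88 ± 0.13 (edgeR adjusted p = 0.00129), and passed with each of the 8 libraries left out in turn, the highest adjusted p being 0.0212 without SW480 caffeine replicate 2. ANKRD1 measured 152 and 135 CPM in the controls and 84.9 and 79.2 with caffeine, a log2 fold change of -0.81 ± 0.12 (edgeR adjusted p = 0.0023). The loss of SW480 caffeine replicate 2 took ANKRD1 just past the threshold, to an edgeR adjusted p of 0.0522. In both genes the caffeine libraries lay well below the controls and close to each other.

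The other falls in SW480 lay near the threshold. AMOTL2 measured 83.6 and 66.6 CPM in the controls and 49.6 and 53 with caffeine (log2 fold change -0.55 ± 0.15, edgeR adjusted p = 0.0484). F3 measured 12 and 10.9 CPM in the controls and 7.53 and 6.98 with caffeine (log2 fold change -0.66 ± 0.17, edgeR adjusted p = 0.0405). The groups did not overlap in either gene. AMOTL2 did not pass without SW480 control replicate 1 (0.271), without SW480 caffeine replicate 1 (0.109) or 2 (0.226), or without SW620 control replicate 1 (0.0869) or 2 (0.087). F3 did not pass without SW480 control replicate 1 (0.182), without SW480 caffeine replicate 2 (0.277), or without any one of the 4 SW620 libraries (0.0544 to 0.0781). Other tools also took them past the threshold, AMOTL2 with limma-voom (0.0526) and F3 with DESeq2 (0.0789), as did a fit of the SW480 libraries alone (0.0708 for AMOTL2 and 0.0743 for F3).

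The remaining 6 genes did not pass in SW480. YAP1 measured 245 and 203 CPM with caffeine, below the controls at 303 and 254 (log2 fold change -0.31 ± 0.14, edgeR adjusted p = 0.224). WWTR1 measured 32.7 and 35 CPM with caffeine, below 47.4 and 39.3 (-0.36 ± 0.14, edgeR adjusted p = 0.163, and 0.0483 without SW480 control replicate 2). The groups were separate for both co-activators, though neither passed. AJUBA had caffeine levels of 41.7 and 47.2 CPM, also below its controls (-0.20 ± 0.14, edgeR adjusted p = 0.452). TEAD1 at 162 and 152 CPM, AXL at 22.7 and 22.9 and CCN2 at 3.48 and 2.09 had caffeine libraries that overlapped their controls, with log2 fold changes of -0.033 ± 0.16, -0.036 ± 0.15 and 0.064 ± 0.28. For CCN2 the 103 counts over the caffeine libraries and 87 over the controls limit what could be seen.

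In SW620, caffeine lowered CCN1 and CCN2 and raised AXL and WWTR1. These 4 of 10, 2 in each direction, stand beside 14.4% of all tested genes that passed here, 8.10% higher and 6.25% lower. The median log2 fold change of the 10 was -0.019, against -0.011 over all tested genes, and the libraries of the groups did not overlap for 6 of the 10, against 62.0% of tested genes.

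CCN1 measured 19.2 and 20.3 CPM in the SW620 controls and 10.1 and 9.31 with caffeine, a fall to 0.49 of the control level (log2 fold change -1.03 ± 0.14, edgeR adjusted p = 0.000113). It passed with each of the 8 libraries left out, with edgeR adjusted p-values up to 0.00447. CCN2 measured 3.95 and 4.66 CPM in the controls and 1.96 and 1.81 with caffeine (-1.19 ± 0.27, edgeR adjusted p = 0.00734). Its libraries did not overlap, but it did not pass without SW620 control replicate 2 (0.09) or SW620 caffeine replicate 2 (0.0727). ANKRD1 had 6 and 5 counts in the SW620 controls and 1 and 1 with caffeine, a ratio of 0.197 with a 95% counting interval of 0.0212 to 0.902 (edgeR adjusted p = 0.0745). With so few counts ANKRD1 could be followed in SW480 only.

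AXL measured 2.83 and 3.06 CPM in the SW620 controls and 9.05 and 7.25 with caffeine, 2.75-fold higher (log2 fold change 1.46 ± 0.19, edgeR adjusted p = 8.22e-05). The rise passed with each of the 8 libraries left out (edgeR adjusted p of at most 0.00292), yet the level with caffeine stayed below the 21.7 to 25 CPM of all 4 SW480 libraries. Markers of several cell types also moved with caffeine in SW620. Of the 9 epithelial markers 2 rose, CDH1 from 192 and 199 to 368 and 396 CPM (edgeR adjusted p = 8.15e-05) and KRT20 from 0.607 and 0.601 to 2.68 and 2.11 CPM (0.00304), and 1 fell, CDX2 from 134 and 128 to 80 and 87.9 CPM (0.00127). In SW480 1 of the 9 epithelial markers fell with caffeine and 0 rose, where 3.60% of all tested genes passed. CDH1, at 0.129 and 0.383 CPM with caffeine in SW480, did not pass (edgeR adjusted p = 0.07). Of the 3 fibroblast, 3 leukocyte and 3 endothelial markers tested, 0 passed in SW480. In SW620 the 8 fibroblast markers summed to 37.8 and 40.1 CPM in the controls and 48.6 and 45.9 with caffeine. The 6 endothelial markers summed to 9.92 and 9.72 CPM in the controls and 15.4 and 15.6 with caffeine. Of the fibroblast markers 3 to 5 were at 0 in each SW620 library, and of the endothelial markers 1 to 3. COL1A1 passed the test (6.33 and 5.76 CPM to 14.6 and 15.1, edgeR adjusted p = 0.000193), as did PECAM1 (0.0391) and VWF (0.0261). Of the other markers in these 2 lists, COL3A1 and KDR were at 0 counts in all 4 SW620 libraries. COL1A2, DCN, PDGFRA, THY1 and TEK were at or near 0. PDGFRB had 22 and 18 counts in the controls and 27 and 32 with caffeine. CDH5 had 7 and 4 counts and then 3 and 3, and ESAM 5 and 3 and then 3 and 0. LUM measured 30.2 and 33.4 CPM in the controls and 32.3 and 29 with caffeine (edgeR adjusted p = 0.859). The 7 leukocyte markers summed to 2.28 and 2.91 CPM in the controls and 3.75 and 4.13 with caffeine, of which CSF1R made up 1.87 and 2.51 and then 3.39 and 3.93 CPM (edgeR adjusted p = 0.0745), while PTPRC was at 0 in all 4. The part of these shifts in the changes of AXL, or of any other gene in either line, was not tested.

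WWTR1 measured 13 and 14.8 CPM in the SW620 controls and 19.3 and 19.9 with caffeine (log2 fold change 0.50 ± 0.15, edgeR adjusted p = 0.032). This call ended when any one SW620 library was left out: 0.304 without control replicate 1, 0.113 without control replicate 2, 0.0987 without caffeine replicate 1 and 0.156 without caffeine replicate 2. YAP1 at 185 and 232 CPM with caffeine overlapped its controls at 220 and 212. TEAD1 measured 135 and 188 CPM with caffeine against 129 and 132, a log2 fold change of 0.31 ± 0.16 (edgeR adjusted p = 0.238, and 0.0494 in a fit of the SW620 libraries alone). AMOTL2 at 14.4 and 18.5 CPM, AJUBA at 69.5 and 83.8 and F3 at 6.07 and 6.19 overlapped their controls, with log2 fold changes of -0.092, 0.066 and 0.016. AMOTL2 and F3, which fell in SW480, thus did not pass in SW620.

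**Figure D3:**
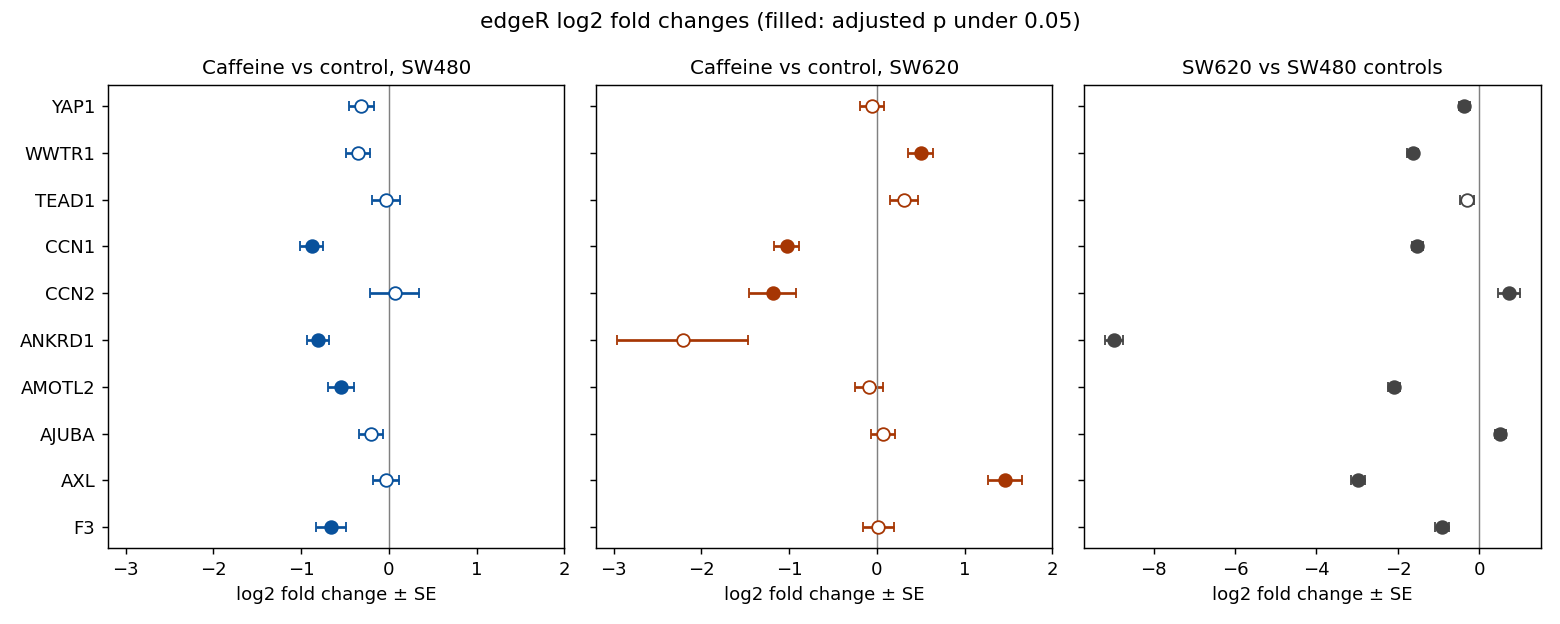
Log2 fold change with its standard error for the 10 genes, for caffeine in SW480 (left), caffeine in SW620 (middle) and SW620 against SW480 controls (right, on a wider axis). Filled points passed at an edgeR adjusted p under 0.05. CCN1 is filled and negative in all 3 panels, and AXL is filled in the middle and right panels with opposite signs.

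The test of the difference between the lines in the caffeine effect (SW620 minus SW480) passed for 2 of the 10 genes, both with the higher change in SW620, against 6.71% of all tested genes, 4.24% higher and 2.47% lower. AXL differed by 1.50 ± 0.24 on the log2 scale (edgeR adjusted p = 0.00133), with 0.0156 as the highest value over all alternatives tried. WWTR1 differed by 0.85 ± 0.20 (edgeR adjusted p = 0.0172), and did not pass without SW620 control replicate 1 (0.135), SW620 control replicate 2 (0.0574) or SW620 caffeine replicate 2 (0.0656). For CCN1 the difference was -0.15 ± 0.19 (edgeR adjusted p = 0.692), so that its falls of 0.88 and 1.03 on the log2 scale were not told apart. CCN2 at -1.25 ± 0.39 did not pass (edgeR adjusted p = 0.0632), but did without SW480 caffeine replicate 2 (0.0319) and with no filter on low counts (0.0398). F3 at 0.67 ± 0.25 (edgeR adjusted p = 0.11) and AMOTL2 at 0.46 ± 0.22 (0.221) did not pass, so their falls were not shown to be limited to SW480. The 2 effects share no library.

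**Figure D4:**
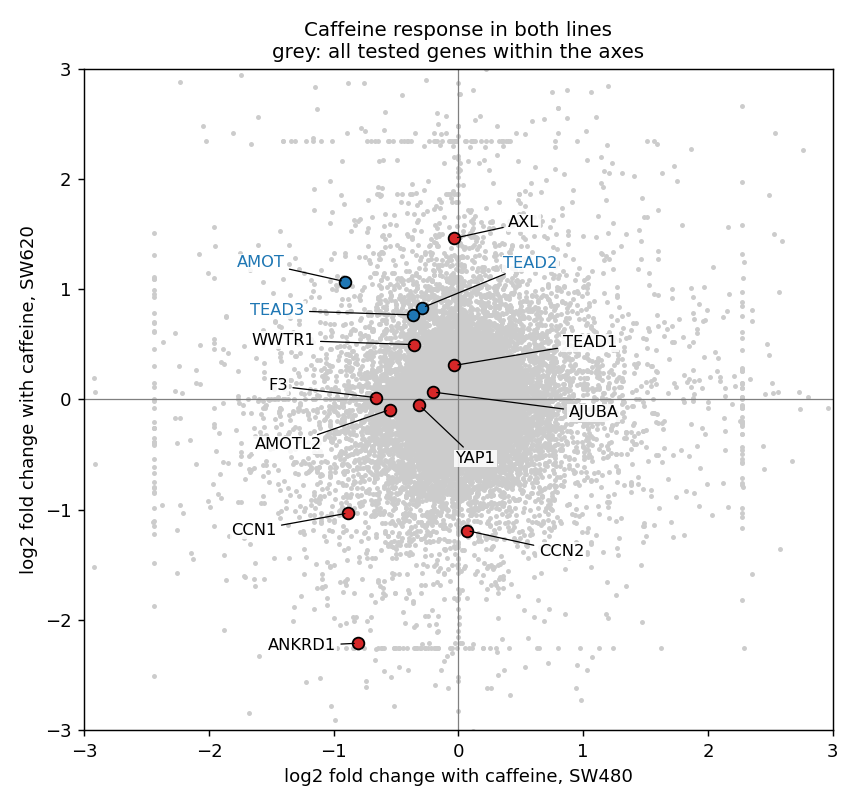
Log2 fold change with caffeine in SW480 (horizontal) and SW620 (vertical), with all tested genes inside the axes in grey, the 10 genes in red and AMOT, TEAD2 and TEAD3 in blue. CCN1 lies in the lower left at -0.88 and -1.03, AXL lies on the vertical axis at 1.46, and AMOT lies at -0.91 in SW480 and 1.07 in SW620.

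Across the 4 groups, the mean level of CCN1 fell in the order SW480 control (56.7 ± 0.223 CPM, SD, n = 2), SW480 caffeine (30.7 ± 1.3), SW620 control (19.8 ± 0.755) and SW620 caffeine (9.69 ± 0.53), and no neighbouring groups overlapped. The groups of ANKRD1 stood in the same order, but in SW620 its 2 caffeine libraries lay under the 3-count floor and the step there did not pass. WWTR1 had 4 separate groups, with SW620 caffeine (19.6 ± 0.413 CPM) above SW620 control (13.9 ± 1.29). In the other 7 genes at least 1 pair of neighbouring groups overlapped. The share of all tested genes with 4 separate groups was not counted. For single pairs, libraries were separate in 43.0% of tested genes for caffeine in SW480, 62.0% for caffeine in SW620 and 83.4% between the controls.

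Caffeine also raised TEAD2 and TEAD3 in SW620. Of the 7 other TEAD and VGLL genes 4 had enough counts to be tested (TEAD2, TEAD3, TEAD4 and VGLL4), and 2 of these rose in SW620, as did 8.10% of all tested genes, while 0 passed in SW480. TEAD2 measured 8.7 and 8.07 CPM in the SW620 controls and 15.5 and 14.4 with caffeine (log2 fold change 0.83 ± 0.15, edgeR adjusted p = 0.00118). TEAD3 measured 13.9 and 11.6 CPM and then 21.5 and 21.9 (0.77 ± 0.15, edgeR adjusted p = 0.00225, and 0.0787 without SW620 control replicate 2). Both differed between the lines, TEAD2 by 1.12 ± 0.20 (edgeR adjusted p = 0.00252) and TEAD3 by 1.13 ± 0.21 (0.00328). In SW480 TEAD2 measured 47 and 50.3 CPM in the controls and 41.8 and 37.8 with caffeine, and TEAD3 27.6 and 25.4 and then 21.9 and 19.3, which did not pass.

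Of 24 tested Hippo kinases and upstream regulators, 1 fell with caffeine in SW480, and 3 rose and 1 fell in SW620, close to the 3.60% and 14.4% of all tested genes that passed there. AMOT, the founding angiomotin and a YAP-binding scaffold like AMOTL2, passed in both lines with opposite signs. It measured 45 and 35.7 CPM in the SW480 controls and 22.1 and 20.9 with caffeine (log2 fold change -0.91 ± 0.15, edgeR adjusted p = 0.00458, and 0.0945 without SW480 caffeine replicate 2). In SW620 AMOT measured 2.53 and 2.46 CPM in the controls and 4.52 and 5.89 with caffeine (1.07 ± 0.22, edgeR adjusted p = 0.0033, and 0.0619 without SW620 caffeine replicate 2). The difference of 1.98 ± 0.26 passed (edgeR adjusted p = 0.000262) with each library left out. WWC2, of the KIBRA family that activates LATS, rose in SW620 by 0.67 ± 0.16 (edgeR adjusted p = 0.0104), but not without SW620 control replicate 1 or 2 or SW620 caffeine replicate 2 (0.0743 to 0.109). CRB3, a cell polarity gene, rose by 0.57 (edgeR adjusted p = 0.0485) and WTIP, a LIM-domain relative of AJUBA, fell by 0.74 (0.0473). Both calls ended with any one SW620 library left out, and that of WTIP also without either SW480 caffeine library, with adjusted p-values between 0.0502 and 0.37. The core kinase genes of this list, STK3, STK4 and LATS1, named for their role, did not pass with caffeine in either line. LATS2, placed among the further published targets below, rose narrowly in SW620 (log2 fold change 0.57 ± 0.19, edgeR adjusted p = 0.0497). STK4, which encodes MST1, was 3.73-fold lower in the SW620 than in the SW480 controls (log2 fold change -1.90 ± 0.14, edgeR adjusted p = 2.74e-09), and AMOT was 16.2-fold lower (-4.01 ± 0.19, edgeR adjusted p = 1.03e-11). Between the control lines 3 of the 24 were higher and 11 lower in SW620, against 65.6% of all tested genes that differed.

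Of 15 further tested genes published as YAP and TAZ targets, 1 fell in SW480, where 1.93% of all tested genes fell. In SW620 3 rose and 1 fell, where 8.10% of all tested genes rose and 6.25% fell. FJX1 measured 27.1 and 24.6 CPM in the SW620 controls and 14.5 and 13 with caffeine (log2 fold change -0.91 ± 0.14, edgeR adjusted p = 0.000484), and passed with each library left out. MYOF, the membrane-repair protein myoferlin, rose from 533 and 523 CPM to 767 and 890 (0.65 ± 0.14, edgeR adjusted p = 0.00555), though not without SW620 control replicate 1 or 2 or SW620 caffeine replicate 2 (0.0618 to 0.0758). LATS2, a kinase that restrains YAP and is itself a target gene, and CRIM1 rose by 0.57 and 0.76 (edgeR adjusted p of 0.0497 and 0.041), and both calls ended when any one of the 4 SW620 libraries or of the 2 SW480 caffeine libraries was left out (0.0537 to 0.305). ASAP1 fell in SW480 by 0.71 on the log2 scale (edgeR adjusted p = 0.0403), but not without either SW620 control, SW480 caffeine replicate 2 or SW480 control replicate 1 (0.0528 to 0.415). The median of the 15 was -0.15 in SW480 and 0.33 in SW620, against 0 and -0.011 over all tested genes. In SW620 11 of the 15 values were positive, against 47.98% over all tested genes, while FJX1 fell, as did the members CCN1 and CCN2. Between the control lines 9 of the 15 were lower and 3 higher in SW620, where 32.6% of all tested genes were lower and 33.0% higher. IGFBP3 was 73.8-fold lower (-6.21 ± 0.19, edgeR adjusted p = 7.36e-14) and CRIM1 24.7-fold lower (-4.63 ± 0.20, edgeR adjusted p = 3.65e-12), while MYOF was 4.37-fold higher (2.13 ± 0.15, edgeR adjusted p = 1.47e-09).

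AP-1 factors often bind beside TEAD. Of 9 AP-1 subunit genes, 2 rose with caffeine in SW620, as did 8.10% of all tested genes, and 0 passed in SW480, where 3.60% of all did. Their median log2 fold change was -0.32 in SW480 and 0.083 in SW620, against 0 and -0.011 over all tested genes. FOSL2 measured 24.5 and 23.7 CPM in the SW620 controls and 54.2 and 55.5 with caffeine (log2 fold change 1.19 ± 0.14, edgeR adjusted p = 3.01e-05), and in SW480 85.8 and 67.7 CPM and then 66.4 and 70.4. The SW620 call and the difference of 1.35 ± 0.19 (edgeR adjusted p = 0.000442) passed with each library left out. FOS at 325 and 337 CPM and then 415 and 425 passed narrowly (0.34 ± 0.11, edgeR adjusted p = 0.0485), and not without any one SW620 library (0.15 to 0.341), with no filter on low counts (0.0836) or with the mitochondrial genes left out (0.0541). In the controls FOSB was 11.5-fold, ATF3 6.2-fold and JUN 4.25-fold higher in SW620, and FOSL2 was 3.18-fold lower.

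Actin and focal-adhesion genes, many of them driven by SRF with MRTF, are commonly set beside YAP targets. Of 17 tested, 5 rose in SW620 (ZYX, FLNA, CNN2, FHL2 and VCL), where 8.10% of all tested genes rose, and 0 passed in SW480, where 3.60% of all did. COL1A1, PECAM1 and VWF, named above, rose in the same SW620 libraries, and their part in this group was not tested. ZYX, the focal-adhesion protein zyxin, measured 77.8 and 75.5 CPM in the SW620 controls and 143 and 139 with caffeine (log2 fold change 0.88 ± 0.11, edgeR adjusted p = 7.31e-05), against 150 and 158 and then 134 and 134 in SW480. Its difference of 1.08 ± 0.16 passed (edgeR adjusted p = 0.000615) with each library left out, as did the rise in SW620. FLNA, the actin crosslinker filamin A, went from 1110 and 1090 CPM to 1650 and 1830 in SW620 (0.66 ± 0.14, edgeR adjusted p = 0.00365), but not without SW620 control replicate 1 or 2 or SW620 caffeine replicate 2 (0.0558 to 0.0758). CNN2 lost its call without the same 3 libraries (0.0599 to 0.119), and FHL2 without either SW620 control (0.0805 and 0.118). Without SW620 control replicate 1 or 2 or SW620 caffeine replicate 2, fewer of the 17 passed, as did fewer of all tested genes. VCL was named after its values were seen, as the last of the 5.

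In the CCN family beyond CCN1 and CCN2, CCN3, CCN4 and CCN5 were low, with at most 14 counts in any library, while CCN6 stood higher. CCN5 had 1 and 3 counts in the SW620 controls and 12 and 11 with caffeine (edgeR adjusted p = 0.0279, and 0.0788 to 0.231 without any one SW620 library). CCN6 measured 1.27 and 1.17 CPM in the SW480 controls and 4.45 and 5.41 in the SW620 controls (log2 fold change 2.01 ± 0.27, edgeR adjusted p = 5.28e-06). CCN3 had 10 and 14 counts in the SW480 controls and 0 in all 4 SW620 libraries (edgeR adjusted p = 0.000178 between the controls).

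**Figure D5:**
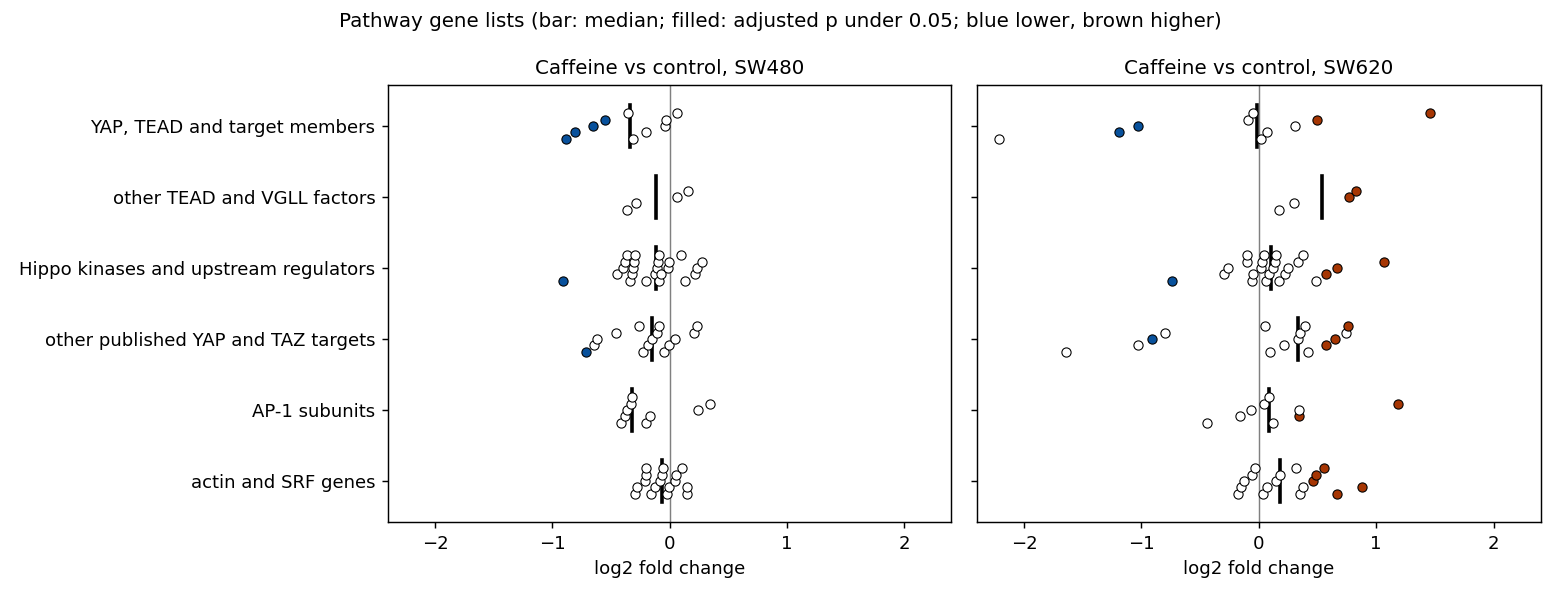
Log2 fold change with caffeine of every tested gene in 6 gene lists, in SW480 (left) and SW620 (right), with a bar at each list's median. Filled points passed at an edgeR adjusted p under 0.05, blue lower and brown higher. In SW480 the filled points are the 4 members, AMOT and ASAP1, all blue, while in SW620 most filled points are brown and the median of the further targets is 0.33.

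The genes whose profile over the 8 libraries lay nearest to each of the 10 were found among 12455 genes, by the root-mean-square difference of centred log2 CPM. ARHGAP9 was nearest to CCN1, at 0.0552 log2 units against 0.926 for the size of CCN1's own profile, and NFIB was next at 0.177. GLI3 (0.27) and WNT5A (0.332) were nearest to ANKRD1, whose own profile had a size of 4.41. AXL was matched by MDGA1 and NRP1, both at 0.177, WWTR1 by RASA3 (0.0921) and SOCS3 (0.102), and F3 by CXADR (0.0665) and ZNF555 (0.0687). For AMOTL2 the nearest were SMAD5 (0.11) and FAS (0.111), for YAP1 PUM2 (0.0312) and MSI2 (0.0462), and for TEAD1 DNAJC13 (0.0382) and HEATR1 (0.0642). AJUBA lay nearest to PAXBP1 (0.0565) and RAP2B (0.0596). CCN2 had no close match, with GPR155 at 0.185 and LINC00997 at 0.19 against its own size of 0.449. A profile holds both the difference between the lines and the caffeine changes, and nearness does not tell them apart.

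Some exons of 6 of the genes overlap another annotated gene, and the strand setting used for counting is not given in the sources used here. In AMOTL2 (187 bases) and AJUBA (50 bases) the overlap is on the same strand, and in YAP1 (628), WWTR1 (795), CCN2 (195) and AXL (67) it is on the opposite strand. The partner genes in the files had 0 to 7 counts in every library. The partner of CCN2, AL133346.1, was not analysed here. Reads of 7.357% to 8.373% per library were set aside by the authors' counting as ambiguous between genes.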

How the data were processed

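Poly-A RNA of 8 libraries was sequenced with single-end reads from a directional kit, per the labels' protocols. The authors deposited raw counts per Ensembl gene, 1 file per library, made with Trim Galore (no version given), STAR 2.7.3a and featureCounts 2.0.5 on hg38, per the submitters' processing notes; the strand setting and the annotation release are not given in the sources used here. The 12 assignment totals at the end of each file were dropped, which left 62649 genes. Symbols were matched for 62625 genes, and 58225 were found in GENCODE 29 (GRCh38), which gave coordinates and exon lengths.

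All 8 libraries entered 1 fit in edgeR 4.0.16 (R 4.3.3), with TMM scaling, filterByExpr (17671 of 35897 genes with any count), a robust quasi-likelihood F test and a threshold of 0.05 on p-values adjusted by Benjamini and Hochberg's method across every tested gene. The SE is the log2 fold change divided by the square root of F. The biological coefficient of variation was 10.5%. The spread was estimated jointly, as each of the 4 groups has only 2 libraries. Intervals on count ratios cover counting error only, since counts were pooled over the 2 libraries of a group and the spread between libraries does not enter. The reads carry no molecular identifiers. Nearness between profiles used log2 CPM with a prior count of 2, among genes with a mean of at least 1. Promoter windows came from RefSeq (GRCh38.p14).

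Named were the 10 genes in every comparison, at most 4 genes per other list and comparison that passed the test, by adjusted p, and the 2 nearest profiles. The lists were other TEAD and VGLL factors, Hippo kinases and upstream regulators, other published YAP and TAZ targets, AP-1 subunits, actin and SRF genes, other CCN genes, and epithelial, fibroblast, leukocyte and endothelial markers. The leukocyte markers summed to 2.21 to 4.13 CPM over all libraries. The 10 genes and the lists were chosen with earlier results of these data known. Alternatives were DESeq2 size factors, no filter, DESeq2 1.42.0, limma-voom (limma 3.58.1), the replicate number as a block, separate fits, each library left out and, chosen after seeing the data, the mitochondrial genes left out. The fitting code was tested on simulated counts.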

Additional observations from a re-analysis of the deposited data

Results flagged for a closer look

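A test of the difference between the lines in the caffeine effect (SW620 minus SW480, log2 scale) passed for 13 of the tested genes of the pathway lists, the 10 members included. Tested were the 10 members, 4 other TEAD and VGLL genes and 24 upstream regulators. The rest were 15 further targets, 9 AP-1 genes, 17 actin and SRF genes and 3 other CCN genes. Of all tested genes 6.71% passed, 4.24% with the higher and 2.47% with the lower change in SW620. All 13 had the higher change in SW620, and no explanation was tested for any of them. Of the markers tested, 9 epithelial and 3 each of the fibroblast, leukocyte and endothelial lists, CDH1 (2.46), VWF (1.75) and CLDN4 (0.64) passed as well.

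Among the members, the difference was 0.85 for WWTR1 and 1.50 for AXL. TEAD2 differed by 1.12 and TEAD3 by 1.13. Of the upstream regulators, WWC2 differed by 0.96 and AMOT by 1.98. AMOT passed in each line alone with opposite signs. Of the further published targets, ASAP1 differed by 1.13 and CRIM1 by 1.22. The AP-1 genes FOS and FOSL2 differed by 0.75 and 1.35, and the focal-adhesion genes VCL, ZYX and FHL2 by 0.74, 1.08 and 0.64. With any one library left out, the calls for AXL, TEAD2, TEAD3, AMOT, FOSL2 and ZYX stood. The other 7 calls ended without at least 1 library. WWTR1 did not pass without SW620 control replicate 1 or 2 or SW620 caffeine replicate 2 (edgeR adjusted p of 0.0574 to 0.135). The same 3 libraries ended the call for VCL, as did SW480 caffeine replicate 2 (0.0712 to 0.15). WWC2 also failed without these 3 and without replicate 1 of either SW480 group (0.0567 to 0.0898). For FHL2 the loss of any one SW620 library or of either SW480 caffeine library ended it (0.0585 to 0.201). FOS failed without either SW620 control (0.0652 and 0.0883), and CRIM1 without SW620 control replicate 1 or SW620 caffeine replicate 2 (0.0754 and 0.115). ASAP1 did not hold without SW620 control replicate 2 or replicate 2 of caffeine in either line (0.078 to 0.0998).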

How the results depend on the processing

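The count of members that passed in SW480 was 4, and 2 in a fit of that line alone; over all genes it was 636, and 1073 with no filter on low counts. In SW620 a fit of that line alone called 4617 genes in place of 2537. With each library left out in turn, 1 to 5 members and 50 to 1367 genes passed in SW480, 2 to 4 and 787 to 3225 in SW620, 1 to 3 and 421 to 2156 for the difference between the lines, and 7 to 9 and 9687 to 11763 between the controls. The lowest counts in SW480 came without SW480 caffeine replicate 2. Of 1357 values of single genes under alternatives, 1228 kept their direction and side of the threshold, 115 no longer passed, 6 newly passed and 8 changed sign, none of these 8 being a called value. The sign changes, all with a library left out, are given as log2 fold changes with the range over left-out libraries. In SW480 they were TEAD1 (0.25 without control replicate 1 and 0.013 without caffeine replicate 2; -0.28 to 0.25), CCN2 (-0.31 without caffeine replicate 1; -0.31 to 0.43) and AXL (0.054 without control replicate 2; -0.13 to 0.054). In SW620 they were YAP1 (0.10, range -0.23 to 0.10) and AMOTL2 (0.074, range -0.29 to 0.074) without caffeine replicate 1, AJUBA (-0.076 without caffeine replicate 2; -0.076 to 0.19) and F3 (-0.053 without control replicate 1; -0.053 to 0.088). The cause was not tested, though a fit without a library has fewer samples. Depth limited ANKRD1 in SW620, CCN2, CCN3 and CCN5.

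The replicate numbers were not taken to pair libraries, because the labels do not say that a number marks a shared batch. Same-numbered libraries of a line had deviations that correlated at 0.0265 in SW480 and 0.0134 in SW620. With the replicate number as a block, 4, 4, 2 and 9 members passed in SW480, SW620, the difference and the controls, as without it; over all genes 770, 2648, 1435 and 11713 passed, and FOS in SW620 no longer did (0.34, edgeR adjusted p = 0.0539).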
